A study of Mus musculus with 8 samples.

Results

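The 9 genes described are the receptors and co-receptors of transforming growth factor β (TGF-β) and the bone morphogenetic proteins (BMPs) named TGFBR1, TGFBR2, TGFBR3, ENG, ACVR1, ACVR2A, BMPR1A, BMPR1B and BMPR2. They were taken by name from a table of raw read counts that lists 13937 genes, and all 9 passed the filter on low counts that left 13509 genes for testing. The counts come from bulk RNA sequencing of primary brain astrocytes of C57BL/6 mouse pups at postnatal day 1, either wild type (WT) littermates or lacking RGC-32 (RGC-32 KO, or KO), a cell cycle regulator encoded by RGCC. The cells were grown from minced brains for 2 weeks in medium with fetal bovine serum, shaken to remove oligodendrocyte precursors and neurons, and serum-starved overnight. They were then left untreated (control) or kept with TGF-β (10 ng/ml) for 24 h (treated), with 2 libraries in each of the 4 groups and 8 in all. The replicates are stated to be biological, but how many pups went into each is not given in the sources used here.

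Ligands of this family bring together pairs of type I and type II receptors, both of which are serine/threonine kinases. The type II receptor binds the ligand and phosphorylates the glycine- and serine-rich GS box of the type I receptor, which in turn phosphorylates receptor-regulated Smad proteins. TGFBR2 and TGFBR1 are the type II and type I receptors of TGF-β and act mainly through Smad2 and Smad3. BMPR2 and ACVR2A are type II receptors of BMPs and activins, and ACVR1, BMPR1A and BMPR1B are type I receptors that act mainly through Smad1, Smad5 and Smad9. TGFBR3 (betaglycan) and ENG (endoglin) carry no kinase and present ligand to the others. In astrocytes TGF-β is known for its part in reactive gliosis and matrix production, and BMPs for promoting the astrocyte fate.

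The GS box is printed for the 4 type I receptors because it is the stretch that the type II receptor modifies, and because these 4 kinases did not respond alike to TGF-β. The 24 coding bases that hold it in each gene, 5′ to 3′ on the strand of the gene and read from GENCODE M21 transcripts of GRCm38 (mm10), are given with capitals at the 12 bases that all 4 share.
TGFBR1: acaAcaTCaGGgtcTGGaTCaGGt
ACVR1: tgtAcaTCaGGaagTGGcTCcGGt
BMPR1A: caaAgcTCtGGgagTGGaTCtGGa
BMPR1B: cagAgcTCgGGaagTGGaTCaGGc
The TGFBR1 box lies on the plus strand and is split between exons 3 and 4, so its outer bases are at chr4:47393468-47396356. The ACVR1 box lies in exon 5 at chr2:58474231-58474254, the BMPR1A box in exon 8 at chr14:34429668-34429691 and the BMPR1B box in exon 6 at chr3:141862995-141863018, all on the minus strand. The search by codons found no such box in the coding sequences of the other 5 receptors.

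Whole-series facts that bear on these values are few. Total counts per library ran from 14920561 to 18956038, and replicates lay further apart than counting error alone would give (chi-square per degree of freedom 6.26 to 10.4). RGCC, the targeted gene, had 80 and 94 counts in untreated WT, 215 and 362 in treated WT, 61 and 28 in untreated KO, and 64 and 26 in treated KO. Both KO groups thus lay below their WT counterparts but were not at 0, and the log2 difference (KO minus WT) was -0.97 in control (edgeR adjusted p = 0.78) and -2.54 after TGF-β (adjusted p = 0.133), so that the check of the label did not pass the test. Of the marker genes of cell types, all 10 for astrocytes were in the table, with a summed level of 4400 to 5780 CPM (counts of a gene per megaread of the library, after TMM scaling of library sizes) in the control libraries and 3440 to 4550 after TGF-β. This sum was higher in KO than in WT without overlap, at 5070 to 5780 against 4400 to 4630 CPM in control and 4260 to 4550 against 3440 to 3560 after TGF-β. GFAP was the largest part of it, at 1548 and 1771 CPM in untreated WT and 1903 and 2650 in untreated KO. None of the 10 passed the threshold given below between genotypes. Their median log2 difference, averaged over treatment, was 0.207, with FABP7 at -0.006 and GJA1 at -0.026. All 12 for microglia or macrophages were also in the table, at 1330 to 1620 CPM in control and 1210 to 1590 after TGF-β.

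TGF-β moved 4 of the 9 receptors past the threshold in WT astrocytes, and the same 4 in KO astrocytes. ACVR1, BMPR2 and ENG rose and TGFBR3 fell. The threshold was an adjusted p under 0.05 in edgeR's quasi-likelihood test, with the Benjamini-Hochberg method over all 13509 genes, and a log2 fold change of 0.6 or more in either direction. In WT, 3 of 9 receptors rose, against 7.72% of all genes tested, and 1 fell, against 5.65%. In KO, 3 rose, against 6.61% of all genes, and 1 fell, against 4.93%. The median log2 fold change of the 9 was 0.288 in WT and 0.089 in KO, while that of all genes was -0.00479 and 0.00311. At any fold, 5 receptors were higher and 1 lower at an adjusted p under 0.05 in WT, against 18.6% and 14.3% of all genes, and in KO 4 were higher and 1 lower, against 16.6% and 11.8%. Among these, the small differences of TGFBR2 in WT and TGFBR1 in KO did not hold in every fit, with adjusted p-values of 0.126 and 0.0931 by DESeq2. In RNA from whole cultures, a change in the number of cells of a type and a change in RNA per cell cannot be told apart.

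**Figure D1:**
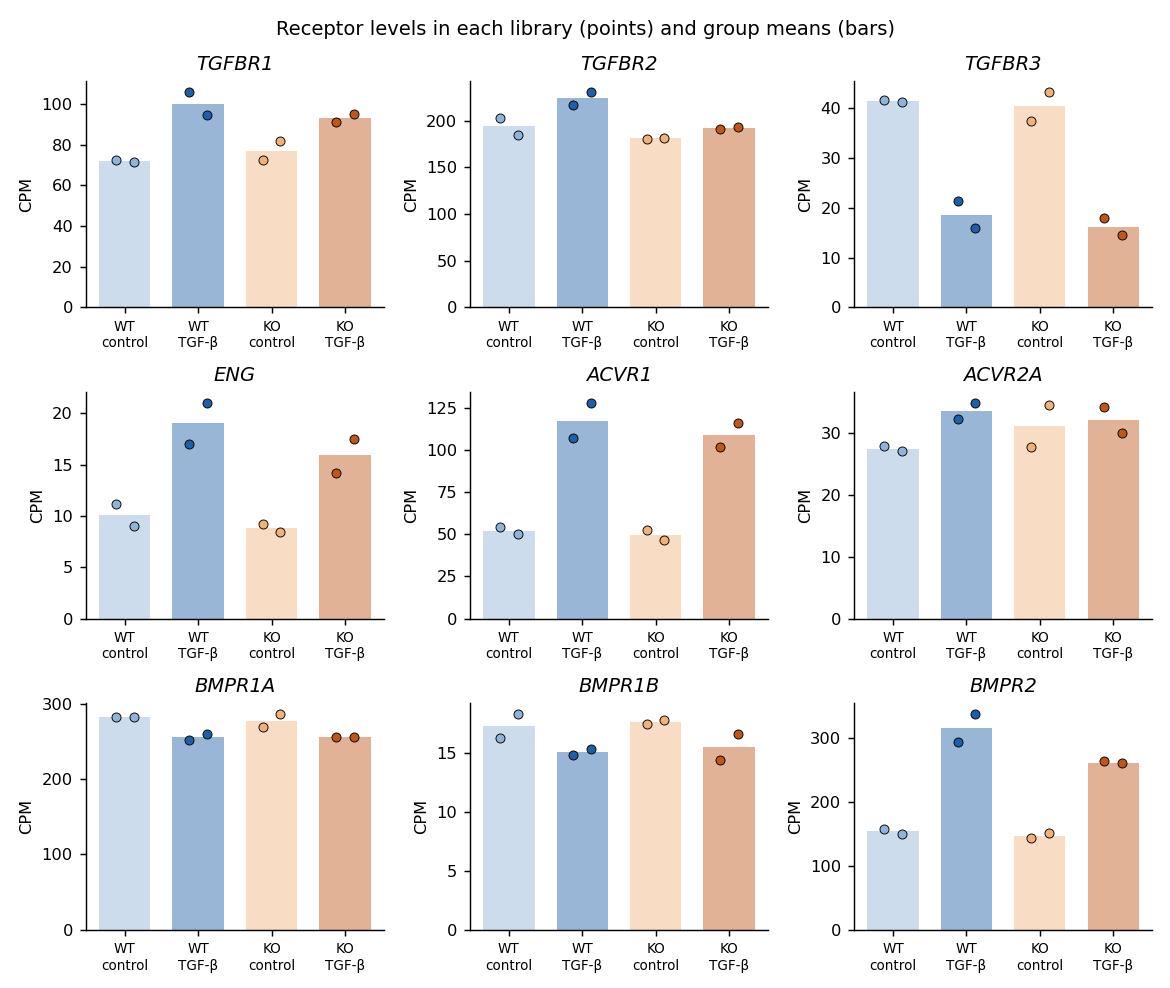
CPM (linear axis from 0) of each receptor in the 8 libraries, with a point for each library and a bar for the mean of the 2 libraries of a group. The points of ACVR1, BMPR2 and ENG after TGF-β all lie above those of their controls and the points of TGFBR3 all lie below, in WT (blue) and KO (orange) alike.

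**Figure D2:**
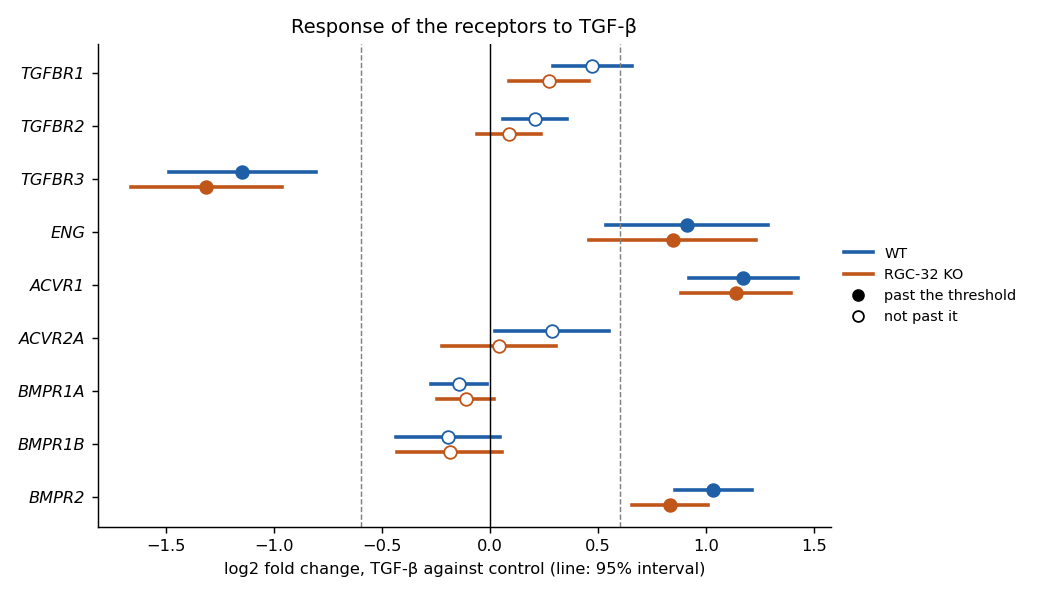
Log2 fold change of each receptor after TGF-β in WT and KO, with its 95% interval from edgeR and dashed lines at the fold threshold of 0.6 in either direction. Filled points passed the threshold: ACVR1, BMPR2, ENG and TGFBR3 in both genotypes.

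Among the type II receptors, BMPR2, the main type II receptor of BMPs, stood at 158 and 150 CPM in untreated WT and at 294 and 337 CPM after TGF-β. The KO libraries showed 143 and 151 CPM in control and 263 and 260 CPM after TGF-β. Treated and control libraries did not overlap in either genotype, and the lowest treated library lay well above the highest control. The log2 fold change was 1.03 (SE 0.0767, adjusted p = 0.000169), or 2.05-fold, in WT and 0.83 (SE 0.0767, adjusted p = 0.000408), or 1.78-fold, in KO. Tested against the fold threshold itself (glmTreat), the change in KO no longer passed, with an adjusted p of 0.0617.

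TGFBR2, the type II receptor that binds TGF-β, was at 203 and 185 CPM in untreated WT and 217 and 231 CPM in treated WT. In KO its level was 180 and 181 CPM in control and 191 and 193 CPM after TGF-β. The treated libraries were slightly higher in both genotypes, by log2 0.21 (SE 0.0637, adjusted p = 0.0391) for WT and 0.09 (SE 0.064, adjusted p = 0.331) in KO, both short of the fold threshold. The small difference depended on the scale, since in the authors' FPKM it was 0.03 in WT (pseudocount 1, limma, adjusted p = 0.597) and -0.05 in KO. In WT the adjusted p was also above 0.05 with DESeq2 (0.126), RLE scaling (0.0567) and edgeR on the 4 WT libraries (0.105).

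ACVR2A, a type II receptor of activins that also serves BMPs, had 27.9 and 27 CPM in untreated WT and 32.2 and 34.8 CPM in treated WT. The KO libraries had 27.7 and 34.4 CPM in control and 34.1 and 29.9 CPM after TGF-β, so treated and control libraries overlapped there but not in WT. Neither difference passed the test, at log2 0.29 (SE 0.114, adjusted p = 0.0893) for WT and 0.04 (SE 0.114, adjusted p = 0.81) in KO. Its exons share 446 bases with ORC4 on the opposite strand, and the libraries were unstranded, so reads from those bases could belong to either gene.

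Among the type I receptors, ACVR1 (also called ALK2) showed the largest rise of the 9 genes in both genotypes. It was at 54.2 and 50 CPM in untreated WT and 107 and 128 CPM in treated WT. KO cultures had 52.6 and 46.4 CPM in control and 102 and 116 CPM after TGF-β. All 4 treated libraries lay above all 4 control libraries. The log2 fold change was 1.17 (SE 0.109, adjusted p = 0.00034), or 2.25-fold, in WT and 1.14 (SE 0.109, adjusted p = 0.000478), or 2.20-fold, in KO, and it passed under every alternative setting tried.

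TGFBR1 (ALK5), the type I receptor that pairs with TGFBR2, had 72.4 and 71.7 CPM in untreated WT and 106 and 94.4 CPM in treated WT. KO cultures showed 72.3 and 81.8 CPM in control and 91.1 and 95.1 CPM after TGF-β. Treated libraries were above controls in both genotypes, but by less than the fold threshold, at log2 0.47 (SE 0.0794, adjusted p = 0.00377) for WT and 0.27 (SE 0.0795, adjusted p = 0.0371) in KO. The KO value did not hold with DESeq2 (adjusted p = 0.0931), upper quartile scaling (0.109) or FPKM with a pseudocount of 1 (0.14).

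The other type I receptors of BMPs, BMPR1A (ALK3) and BMPR1B (ALK6), lay on the lower side after TGF-β and did not pass the test on counts. BMPR1A was at 282 and 282 CPM in untreated WT and 251 and 260 CPM in treated WT, a log2 difference of -0.14 (SE 0.0566, adjusted p = 0.0879). In KO it was at 269 and 286 CPM in control and 256 in both treated libraries, a difference of -0.11 (SE 0.0567, adjusted p = 0.173). BMPR1B was at 16.3 and 18.3 CPM in untreated WT, 14.8 and 15.3 in treated WT, 17.5 and 17.8 in untreated KO, and 14.4 and 16.6 in treated KO. Its differences were -0.20 (SE 0.105, adjusted p = 0.187) and -0.19 (SE 0.105, adjusted p = 0.216). The 95% intervals for both genes and genotypes lay between -0.44 and 0.06, so a fall past the fold threshold lay outside them. On the FPKM scale with a pseudocount of 1 BMPR1A differed by -0.25 in both genotypes (limma, adjusted p = 0.00472 and 0.00502) and BMPR1B in KO by -0.23 (adjusted p = 0.0427), and with upper quartile scaling BMPR1A had adjusted p-values of 0.0177 and 0.0358, all of them under the fold threshold. BMPR1A shares 290 exon bases with Gm17110, an antisense transcript.

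The co-receptors moved in opposite directions. TGFBR3, which presents TGF-β to TGFBR2, was the only receptor of the 9 to fall past the threshold. It stood at 41.7 and 41.2 CPM in untreated WT and at 21.3 and 16 CPM in treated WT. In KO its level went from 37.5 and 43.3 CPM in control to 18 and 14.5 CPM after TGF-β. Every treated library lay below every control library. The log2 fold change was -1.15 (SE 0.147, adjusted p = 0.00122), or 2.21-fold lower, in WT and -1.31 (SE 0.15, adjusted p = 0.00095), or 2.49-fold lower, in KO. It shares 297 exon bases with Gm43422, a transcript of unproven status on the same strand.

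ENG, a co-receptor best known from endothelial cells, had the lowest mean of the 9 per length in untreated astrocytes and rose after TGF-β. It had 11.2 and 9.01 CPM in untreated WT and 17.0 and 21.0 CPM in treated WT. The level in KO was 9.25 and 8.40 CPM in control and 14.2 and 17.5 CPM after TGF-β. No treated library overlapped a control library. The log2 fold change was 0.91 (SE 0.163, adjusted p = 0.0048), or 1.88-fold, in WT and 0.85 (SE 0.168, adjusted p = 0.00886), or 1.80-fold, in KO. In KO the call did not hold without control replicate 2 (adjusted p = 0.0578) or without TGF-β replicate 2 (adjusted p = 0.0703). By glmTreat it passed in neither genotype (adjusted p = 0.194 in WT and 0.401 in KO), and on the FPKM scale with a pseudocount of 1 the changes of 0.49 and 0.48 were under the fold threshold.

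Markers of cells that can express ENG were measured alongside it. Of 8 endothelial markers, 5 were in the table and CLDN5, EMCN and TIE1 were not, and the 5 summed to 99.3 to 124 CPM in untreated WT, 71.6 to 73.7 in treated WT, 101 to 127 in untreated KO and 66.9 to 80 in treated KO. CDH5 was the largest part of that sum in every library, and most of it in the control libraries. Without CDH5 the endothelial markers were at 44.6 to 47.4, 38.6 to 45.1, 39.6 to 51.8 and 34.4 to 36.9 CPM in the same order. FLT1 of this list rose with ENG, by 1.13 (adjusted p = 0.00372) on the log2 scale in WT and by 0.63 (adjusted p = 0.039) in KO, so the endothelial markers did not all move one way, and their part in the result for ENG was not tested. Of 8 mural cell markers, 6 were in the table, with a sum of 238 to 248 CPM in untreated WT, 664 to 757 in treated WT, 208 to 212 in untreated KO and 494 to 581 in treated KO. The summed mural markers were thus higher together with ACVR1, BMPR2 and ENG. Of this list CSPG4, PDGFRB, NOTCH3 and ANPEP rose past the threshold in both genotypes. RGS5 changed little, at log2 0.17 (WT) and 0.03 (KO). VTN was lower, at log2 -0.64 (WT) and -1.39 (KO), and only its fall in KO passed the threshold. The part of the mural markers in the results for ACVR1, BMPR2 and ENG was not tested. Meningeal fibroblast markers, 8 of 10 in the table, summed to 1050 to 1340 CPM in control and 861 to 1030 after TGF-β. Their sum thus moved the same way as TGFBR3. CYP1B1 of this list went the other way, by log2 0.37 (WT) and 0.43 (KO), both short of the fold threshold. The others in the table were lower, and of the 8 tested 3 fell past the threshold in WT and 1 in KO. The part of the meningeal markers was not tested either. None of the markers in the table was at 0 in all libraries. Summed oligodendrocyte lineage markers (9 of 10) were at 380 to 401 CPM in control and 466 to 625 after TGF-β, but without CSPG4, which the mural list also holds, they were at 353 to 377 CPM in control and 287 to 367 after TGF-β. The mural markers without CSPG4 were at 210 to 212 CPM in untreated WT, 407 to 455 in treated WT, 179 to 184 in untreated KO and 341 to 361 in treated KO. Summed neuronal markers (6 of 10) were at 211 to 237 CPM in control and 268 to 321 after TGF-β. Most of that sum was MAP2, at 183 to 203.1 CPM in control and 224.5 to 275.7 after TGF-β. TUBB3 of this list rose past the threshold in both genotypes. SYP was lower, at log2 -0.46 (WT) and -0.64 (KO), and only its fall in KO passed the threshold. Summed ependymal markers (9 of 10) were at 395 to 471 CPM in control and 252 to 315 after TGF-β. ENG also shares 61 exon bases with FPGS on the opposite strand, a gene that was itself higher after TGF-β by log2 0.56 (adjusted p = 0.00468, below the fold threshold) for WT and 0.67 (adjusted p = 0.00265) in KO.

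The 250 bases before the transcription start are printed for ENG, which rose, and for TGFBR1, which stayed under the fold threshold, at starts where RefSeq and GENCODE coincide and no exon is annotated. They come from RefSeq on GRCm38.p6, where 8 of the 9 receptors had an entry and TGFBR3 had none, and capitals mark every match to the motifs searched.
ENG: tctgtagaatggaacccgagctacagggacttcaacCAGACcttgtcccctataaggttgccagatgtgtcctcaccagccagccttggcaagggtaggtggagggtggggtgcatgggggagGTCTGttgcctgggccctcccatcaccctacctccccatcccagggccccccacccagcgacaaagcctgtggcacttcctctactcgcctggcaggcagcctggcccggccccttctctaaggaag
TGFBR1: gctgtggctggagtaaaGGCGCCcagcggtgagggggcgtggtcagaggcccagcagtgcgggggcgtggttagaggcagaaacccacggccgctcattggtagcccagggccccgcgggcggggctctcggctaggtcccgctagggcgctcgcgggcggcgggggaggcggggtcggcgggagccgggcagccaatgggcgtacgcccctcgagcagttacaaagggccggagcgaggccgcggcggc
The ENG window is chr2:32646345-32646594 and the TGFBR1 window chr4:47352972-47353221, both on the plus strand. The motifs were CAGAC and the palindrome GTCTAGAC, which are bound by Smad3 and Smad4, GGCGCC, which is bound by Smad1 and Smad5, and TGANTCA, which is bound by AP-1, each on both strands. Among 32851 RefSeq promoters they occurred in 42.2%, 0.167%, 9.59% and 6.75% of windows of this length. No window printed here holds GTCTAGAC, so no match counts under more than 1 motif. The ENG window held 2 matches to CAGAC, at 214 and 127 bases before the start, and none to the others. The TGFBR1 window held 1 match to GGCGCC, at 233 bases before the start. ACVR2A, which did not pass the test after TGF-β, met the same rule for its start but is not printed. Its window held 1 match to CAGAC, at 188 bases before the start, and none to the others. The GC content was 62.4% with 4 CpG in ENG and 74.8% with 29 CpG in TGFBR1, against medians of 52.4% and 6 over all promoters. The features varied among the receptors that rose. The windows of ACVR1 and BMPR2 (not printed, as they lie in annotated exons) held 46 and 22 CpG and no CAGAC. That of BMPR2 held 1 GGCGCC, at 105 bases before the start, and so did that of BMPR1A, at 198 bases. Another RefSeq start of TGFBR1 had 3 CpG, 52.8% GC and 1 CAGAC. These matches describe the letters only, and no binding was measured.

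Between genes, levels can be compared only per length, for which the authors' FPKM (fragments per kilobase of transcript and megaread of the library) was used. In untreated WT the order was BMPR1A at 43.8 ± 0.441 (SD, n = 2), TGFBR2 at 37.1 ± 1.96, ACVR1 at 14.7 ± 0.629, BMPR2 at 12.7 ± 0.488, TGFBR1 at 11.1 ± 0.0251, TGFBR3 at 5.92 ± 0.212, ACVR2A at 4.27 ± 0.156, BMPR1B at 2.84 ± 0.255 and ENG at 2.57 ± 0.334. Only the neighbours BMPR1B and ENG overlapped in range. In untreated KO the order was the same, from BMPR1A at 44.2 ± 1.84 to ENG at 2.05 ± 0.0403, and only BMPR2 and TGFBR1 overlapped.

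After TGF-β, TGFBR3 moved from the sixth place to the last, at 2.35 ± 0.364 FPKM in WT and 2.23 ± 0.337 in KO, overlapping BMPR1B in both. ENG moved up to the seventh place, at 4.01 ± 0.253 FPKM in WT and 3.25 ± 0.39 in KO. ACVR1 was in the third place in all groups in FPKM, at 30.9 ± 2.03 in treated WT and 28.7 ± 0.514 in treated KO. By counts per kilobase of exon TGFBR1 lay just above it in untreated cells, at 11 against 10.8 CPM per kilobase in WT and 11.8 against 10.3 in KO. In treated WT, TGFBR2 (37.9 ± 0.702) lay above BMPR1A (36.7 ± 0.399) in FPKM, but with counts divided by exon length BMPR1A was the higher of the pair, at 40.2 against 27.4 CPM per kilobase. BMPR1A and TGFBR2 made up 59.3% to 59.9% of the summed FPKM of the 9 receptors in the control libraries and 48.0% to 49.3% in the treated ones, with a mean of 53.8% over the groups.

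**Figure D3:**
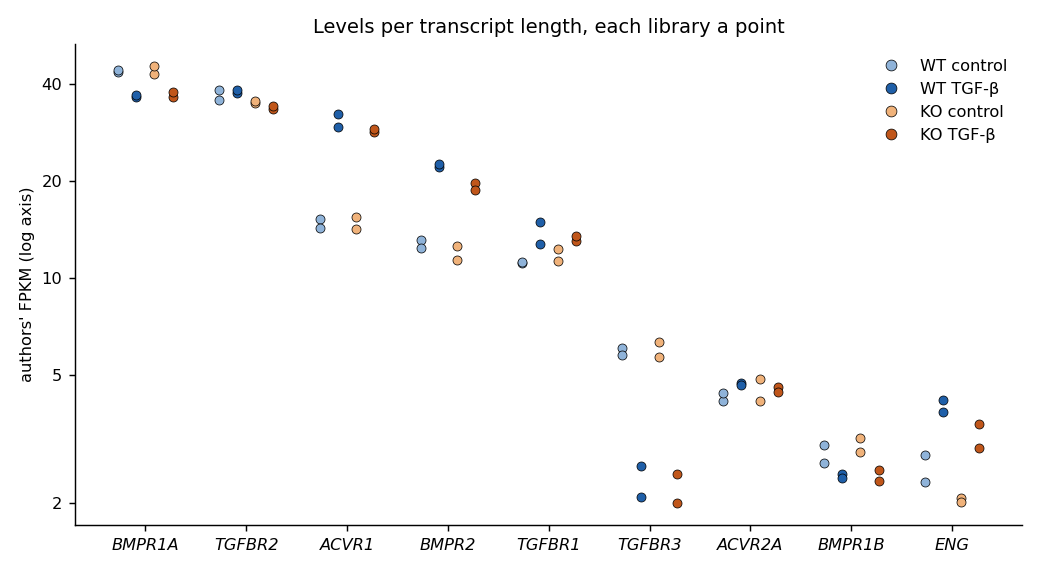
The authors' FPKM of each receptor on a log axis, with a point for each of the 8 libraries, coloured by group and ordered by the mean in untreated WT. BMPR1A and TGFBR2 lead in all groups, ACVR1 and BMPR2 sit higher after TGF-β, and TGFBR3 drops below ENG.

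With these changes the make-up of each receptor class shifted, which is described here without a further test because it restates the same libraries. ACVR1 made up 22.5% to 25.3% of the FPKM of the BMP type I receptors (BMPR1A, ACVR1 and BMPR1B) in the 4 control libraries and 41.9% to 45.1% in the 4 treated ones. BMPR1A made up 70.0% to 72.4% in control and 51.6% to 54.4% after TGF-β. The number of ACVR1 fragments per BMPR1A fragment, both per length, thus went from between 0.311 and 0.361 to between 0.771 and 0.873. These shares depend on the scale. By counts per kilobase of exon ACVR1 lay further below BMPR1A. It was at 10.8 against 44.4 CPM per kilobase in untreated WT and 24.3 against 40.2 in treated WT. In KO it was at 10.3 against 43.7 and 22.6 against 40.4. BMPR2 made up 22.7% to 23.9% of the type II receptors (with TGFBR2 and ACVR2A) in control and 32.8% to 34.4% after TGF-β. ENG made up 24.2% to 31.6% of the co-receptors in control and 54.6% to 66.7% after TGF-β, so that it passed TGFBR3 in each treated library. The ratio of TGFBR3 to TGFBR2 was 0.158 to 0.18 in control and 0.0544 to 0.074 after TGF-β. The sum over all 9 receptors was 131 to 137 FPKM in control and 143 to 156 after TGF-β.

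**Figure D4:**
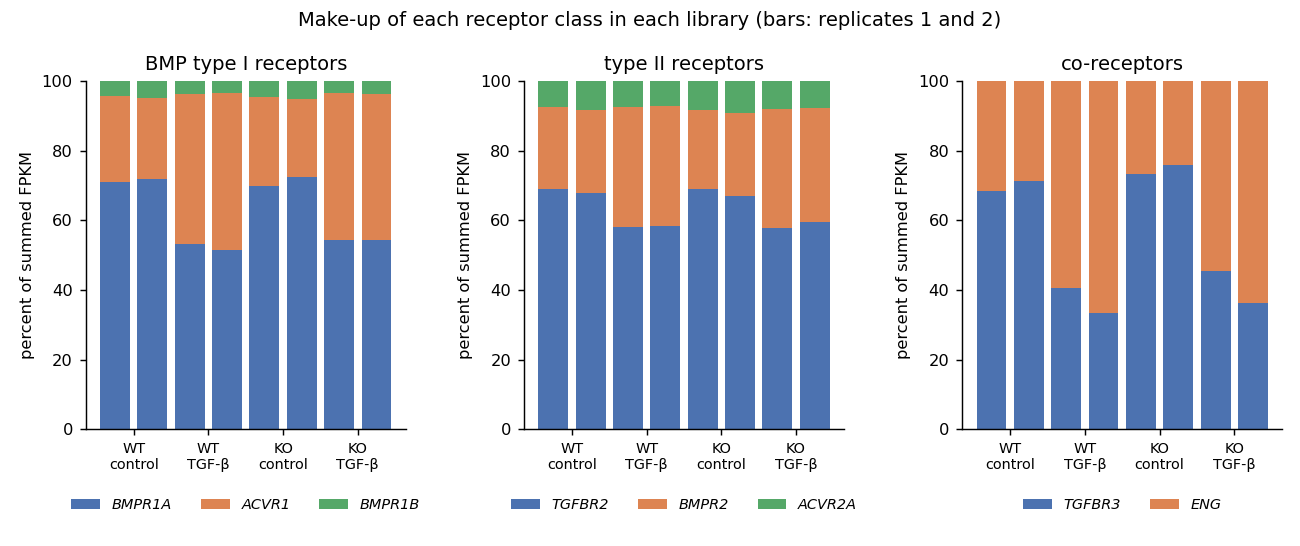
Share of each gene in the summed FPKM of its receptor class (percent, stacked to 100), with a bar for each of the 8 libraries in replicate order. After TGF-β ACVR1 takes 41.9% to 45.1% of the BMP type I receptors, BMPR2 32.8% to 34.4% of the type II receptors and ENG 54.6% to 66.7% of the co-receptors.

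The loss of RGC-32 moved none of the 9 receptors past the threshold, in any of the comparisons between genotypes. In control cells the log2 differences (KO minus WT) ran from -0.19 for ENG (95% interval -0.59 to 0.21) to 0.18 for ACVR2A (-0.09 to 0.45), and the smallest adjusted p was 0.81. Genes past the threshold were rare there, at 0.037% of all genes tested. None of the 9 had an unadjusted p under 0.05.

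After TGF-β, BMPR2 and TGFBR2, both type II receptors, had the smallest unadjusted p, both with the lower level in KO. BMPR2 had 263 and 260 CPM in KO against 294 and 337 in WT, a log2 difference of -0.27 (SE 0.0756, 95% interval -0.45 to -0.10, adjusted p = 0.244 by edgeR). TGFBR2 had 191 and 193 CPM against 217 and 231, a difference of -0.22 (SE 0.0638, 95% interval -0.37 to -0.08, adjusted p = 0.251). The groups did not overlap for either gene, the unadjusted p was 0.00731 and 0.00843, and neither held after adjustment. Without TGF-β replicate 2 of WT the difference of BMPR2 was -0.16 (adjusted p = 0.747) and that of TGFBR2 -0.17 (adjusted p = 0.75). Of all genes, 0.0444% were past the threshold in this comparison. The other 7 receptors had an unadjusted p above 0.05.

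Averaged over control and TGF-β, with 4 libraries in each genotype, the same receptors were the only ones of the 9 with an unadjusted p under 0.05. TGFBR2 differed by -0.16 (SE 0.0451, 95% interval -0.27 to -0.06, adjusted p = 0.166) and BMPR2 by -0.17 (SE 0.0539, 95% interval -0.30 to -0.05, adjusted p = 0.211), where 0.126% of all genes passed. Without TGF-β replicate 2 of WT the averaged difference of BMPR2 was -0.11 (adjusted p = 0.486). The summed astrocyte markers, which were higher in KO as given above, moved the opposite way to both genes. The summed mural markers moved the same way as both genes, without overlap of the genotypes. They were at 208 to 212 CPM in KO against 238 to 248 in WT in control, and at 494 to 581 against 664 to 757 after TGF-β. RGS5 and VTN of the mural list went the other way, at averaged log2 differences of 0.19 and 0.41. The part of neither marker set was tested. Every one of the 9 intervals lay inside the fold threshold of 0.6 in either direction, the widest being that of ENG, from -0.50 to 0.05.

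The response to TGF-β was not shown to differ between the genotypes for any receptor. The interaction, the log2 response in KO minus that in WT, was -0.20 for BMPR2 (95% interval -0.45 to 0.05), -0.03 for ACVR1 (-0.39 to 0.32), -0.07 for ENG (-0.61 to 0.48) and -0.17 for TGFBR3 (-0.65 to 0.32), each with an adjusted p of 1. For TGFBR1 it was -0.20 (-0.46 to 0.06), and for ACVR2A -0.25 (-0.62 to 0.13). By edgeR 0 of the 13509 genes (0%) passed in the interaction, 381 had an unadjusted p under 0.05, and none of the 9 receptors was among those. For ACVR2A, ENG and TGFBR3 the intervals reach past 0.6, so a difference of that size between the genotypes lies within the error of 2 libraries per group. The comparisons within and between genotypes use the same 8 libraries and are not independent of each other.

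**Figure D5:**
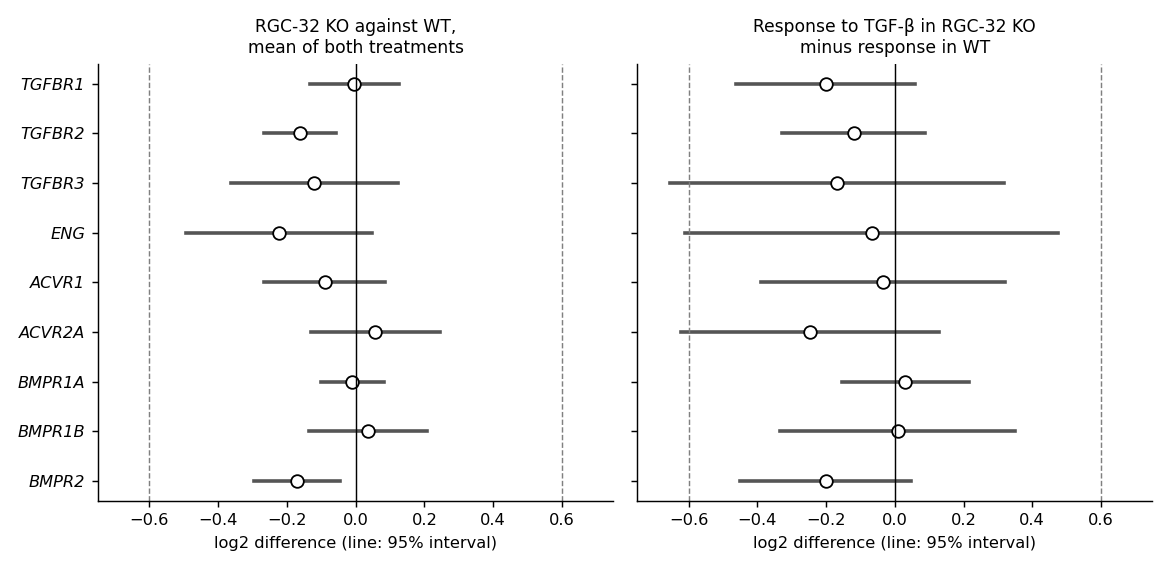
Log2 differences with 95% intervals from edgeR for KO against WT averaged over both treatments (left) and for the response to TGF-β in KO minus that in WT (right), with dashed lines at 0.6 in either direction. All points are open because no receptor passed the threshold, and on the left only the intervals of TGFBR2 and BMPR2 lie wholly below 0.

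The other genes of the pathway were counted by lists, at the same threshold. Of all genes tested, 7.72% rose and 5.65% fell past it in WT, and 6.61% rose and 4.93% fell in KO. Of 12 other receptors and co-receptors tested, 1 rose in each genotype and none fell, and the median of the list was -0.143 (WT) and -0.139 (KO) on the log2 scale. The gene was LRP1, an endocytic receptor that also binds TGF-β, at 1.12 (SE 0.0952, adjusted p = 0.000252) for WT and 0.62 (SE 0.0945, adjusted p = 0.00313) in KO. Of 30 genes of receptor turnover and traffic, 4 rose in WT and 3 in KO and none fell, with medians of 0.0692 and 0.069. PMEPA1, which holds Smads from the receptor and targets TGFBR1 for lysosomes, rose by 2.63 and 2.65. SMAD7, the inhibitory Smad that brings ubiquitin ligases to the receptors, rose by 1.35 and 1.17. MMP14, a membrane protease known to shed both betaglycan and endoglin, rose by 1.27 and 1.15 (SE 0.0833 and 0.0832).

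Of 6 signal-transducing Smads, only SMAD9, of the BMP branch, passed the threshold, and it fell, at -1.10 (SE 0.168) for WT and -0.93 (SE 0.168) in KO. The median of the list was -0.0884 and -0.124. Of 16 ligands tested, 4 rose and 3 fell in WT and 3 rose and 2 fell in KO, with medians of -0.352 and -0.303. INHBA, which encodes an activin subunit, rose by 2.54 and 2.36, and GDF6 by 1.65 and 1.59. BMP7, a ligand of ACVR1 and BMPR2 among others, fell, at -1.37 in WT and -1.44 in KO, and BMP3 at -1.39 and -1.49. Of 12 secreted antagonists, 5 rose and 2 fell in WT and 6 rose and 1 fell in KO, with medians of 0.265 and 0.386. Among those that rose in both genotypes were FSTL3 (2.75 and 2.59) and FST (1.46 and 1.52), which bind activins, and BMPER (1.92 and 2.10), which binds BMPs.

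Readouts of both branches were measured in the same libraries. Of 11 targets of Smad2 and Smad3, 7 rose and none fell in each genotype, and the median was 1.07 (WT) and 0.943 (KO) on the log2 scale. They include LTBP2 (2.15 and 2.09), which binds fibrillin in the matrix, CTGF (1.75 and 1.87) and SKIL (1.69 and 1.60). Of 9 targets of Smad1 and Smad5, none rose, 5 fell in WT and 4 in KO, with medians of -0.746 and -0.544. ATOH8 was at -1.66 and -1.42, ID4 at -1.22 and -1.04, ID3 at -1.15 and -1.04 and ID1 at -0.80 and -0.76. Transcripts of the BMP receptors ACVR1 and BMPR2 were thus higher in the same libraries in which ATOH8, ID1, ID3 and ID4 were lower. No gene of the 7 lists passed the threshold in any comparison between genotypes or in the interaction.

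Genes whose log2 CPM followed a receptor most closely over the 8 libraries were PLOD2 (Pearson r = 0.9991) and POFUT2 (0.9988) for ACVR1, NOMO1 (0.9975) and DDB1 (0.9964) for BMPR2, ACTG1 (0.9957) and KALRN (0.9952) for ENG, and CGNL1 (0.9926) and TCEANC2 (0.9924) for TGFBR3. These values are descriptions over libraries that differ mainly by treatment, and 8.07% of the genes tested reached r above 0.95 with ACVR1, 7.23% with BMPR2, 5.54% with ENG and 1.59% with TGFBR3.

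In the genome (mm10, GENCODE M21) ACVR1 lies at chr2:58388644-58567157 and BMPR2 at chr1:59763400-59879014. ENG lies at chr2:32646595-32682669 and TGFBR3 at chr5:107106570-107289629. BMPR1A is on chromosome 14, as is RGCC, 44.8 Mb away, and its interval for KO against WT averaged over treatment ran from -0.10 to 0.08.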

How the data were processed

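Total RNA from 8 cultures of primary mouse astrocytes was sequenced from unstranded libraries. Per the labels and the study's methods, the authors aligned reads with STAR in the VIPER pipeline to mm10, and deposited raw read counts per gene and Cufflinks FPKM values for 18644 genes. The program that made the counts is not given in the sources used here. The authors also deposited DESeq2 fold changes and p-values, which were not used. Each library was assigned to its group by its label, and every table column was assigned.

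The counts were fitted with edgeR 4.0.16 in R 4.3.3 (filterByExpr, TMM, quasi-likelihood F-test, two-sided), all libraries together and 1 mean per group. The Benjamini-Hochberg adjustment ran over 13509 genes, and a gene passed at an adjusted p under 0.05 and a log2 fold change of 0.6 or more in either direction. SE is that of the log2 fold change, and intervals are at 95%. Library totals were 14920561 to 18956038 counts, and the least abundant receptor had 142 counts or more in each library. The procedure was tested on simulated data. FPKM was tested on log2(value + pseudocount) with limma 3.58.1 over 13362 genes, with pseudocounts of 1 and 0.1, and a fold on that scale understates the change of low genes.

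All 9 receptors were named in each comparison. In each pathway list up to 4 genes with the largest change among those past the threshold in both genotypes were named, and for each receptor that passed, the 2 genes most correlated with it. Some genes that this rule names are not reported here. The receptors, pathway lists and marker lists were chosen with earlier results of these data known. The labels do not say that a replicate number marks a shared culture or day, and 2 replicates a group are too few to show pairing from the data, so no block was used in the main analysis. Alternatives were DESeq2 1.42.0, limma-voom, other filters and scalings, glmTreat, no fold threshold, 4 libraries, a replicate block, FPKM and each library left out.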

Additional observations from a re-analysis of the deposited data

How the results depend on the processing

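The 4 receptors past the threshold in WT and in KO were also 4 in each with DESeq2, limma-voom, no filter, a minimum of 10 counts, RLE or upper quartile scaling, edgeR on 4 libraries and FPKM with a pseudocount of 0.1. With no fold threshold there were 6 and 5, with FPKM and a pseudocount of 1 there were 3 and 3, and with glmTreat 3 and 2. Leaving out 1 library gave 4 in WT each time and 3 to 4 in KO, where ENG was lost without control replicate 2 or TGF-β replicate 2. A group left with 1 library was assumed to vary like the others. Between genotypes and in the interaction the count was 0 under every alternative run. The replicate block left 4 and 4 receptors past the threshold, with 1616 calls among all genes in WT and 1369 in KO against 1806 and 1559 without it. Replicate differences correlated at 0.491 between genotypes in control and 0.253 after TGF-β, but at -0.343 (WT) and -0.348 (KO) between treatments, so a block that keeps the numbers within a treatment and crosses them between treatments was added after seeing the data, with 2105 and 1852 calls and 0 receptors past the threshold between genotypes.

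Only small values changed sign. For ACVR2A in KO the log2 difference was -0.0413 with upper quartile scaling and -0.12 to 0.21 with 1 library left out. For TGFBR2 in KO it was -0.05 on the FPKM scale with either pseudocount (-0.053 and -0.055). The interaction of ENG was 0.0083 with FPKM and a pseudocount of 0.1. With 1 library left out the interaction ran from -0.244 to 0.0939 for ENG, from -0.17 to 0.10 for ACVR1 and from -0.349 to 0.0414 for TGFBR3. Of 36 differences of single receptors between genotypes or in the interaction, 18 changed sign under at least 1 alternative and none passed the threshold. The cause was not tested. Upper quartile scaling lowered the share of calls that rose (WT 57.8% to 44.8%, KO 57.3% to 45.5%) and moved the median of all genes by -0.0858 and -0.0831. The share of BMPR1A and TGFBR2 in the receptors' summed level was 53.8% by FPKM, 53.2% by counts per kilobase and 53.7% to 53.8% with 1 library left out, as a mean over groups that differ by treatment. With 2 libraries per group, p-values measure the spread between few cultures.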
